A study of Mus musculus with 4 samples.

Results

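The genes described here encode the ligands and receptors of the transforming growth factor beta (TGF-β) and activin branches of the TGF-β superfamily: the TGF-β ligands Tgfb1, Tgfb2 and Tgfb3, their receptors Tgfbr1, Tgfbr2 and Tgfbr3, the activin and inhibin subunits Inhba and Inhbb, and the activin type II receptors Acvr2a and Acvr2b. They were chosen by gene symbol, with every array probe annotated to them. All 10 genes were measured, by 15 of the 29922 probes, among 16637 named genes. The series profiled the whole mandible of E11.5 mouse embryos on 4 one-colour microarrays, each giving a normalised log2 intensity per probe. The 2 control samples were wild-type, and the 2 Bmp4 OE samples carried a conditional overexpression of the bone morphogenetic protein gene Bmp4, switched on with doxycycline (dox) for 24 hours; the background strain of both groups was C57BL/6. The labels name neither the promoter of the transgene nor the doxycycline exposure of the controls, so effects of Bmp4, drug and genotype cannot be told apart. Nor do they say whether replicates were different embryos, so the p-values cover the spread between these samples only, and that spread may be technical.

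TGF-β and activin dimers bind a type II receptor, which then phosphorylates a type I receptor, and the type I receptor passes the signal to Smad2 and Smad3. The BMPs use the same logic with Smad1, Smad5 and Smad9, and the branches share the activin type II receptors and Smad4. In the developing jaw, TGF-β signalling in neural crest cells is needed for growth of the mandible and palate, and mice without activin A, the dimer of the Inhba product, lack incisors and lower molars.

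RefSeq start-site windows were found for 8 of the 10 genes; Tgfb3 and Tgfbr3 had no entry. The 250 bases before the start are shown for the 3 genes with an entry whose probes passed the test below (GRCm38.p6, 5′ to 3′ on the gene's strand). A link between these letters and the direction of change was not tested. Capitals mark matches, on both strands, to the Smad box CAGAC, the GC-rich Smad motif GGCGCC (its own reverse complement), the cyclic AMP response element core TGACG and the TATA box TATAAA.

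Tgfb1 (chr7:25686752-25687001, plus strand): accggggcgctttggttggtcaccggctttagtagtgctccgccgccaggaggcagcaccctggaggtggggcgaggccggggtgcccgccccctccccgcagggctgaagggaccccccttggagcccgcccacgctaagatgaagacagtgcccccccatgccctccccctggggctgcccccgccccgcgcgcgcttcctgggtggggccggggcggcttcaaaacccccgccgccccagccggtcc

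Tgfb2 (chr1:186705990-186706239, minus strand): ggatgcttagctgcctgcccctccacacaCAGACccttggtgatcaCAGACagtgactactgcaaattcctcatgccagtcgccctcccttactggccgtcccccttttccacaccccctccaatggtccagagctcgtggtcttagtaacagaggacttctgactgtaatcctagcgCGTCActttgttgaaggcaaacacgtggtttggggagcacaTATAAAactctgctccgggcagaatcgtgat

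Inhba (chr13:16011601-16011850, plus strand): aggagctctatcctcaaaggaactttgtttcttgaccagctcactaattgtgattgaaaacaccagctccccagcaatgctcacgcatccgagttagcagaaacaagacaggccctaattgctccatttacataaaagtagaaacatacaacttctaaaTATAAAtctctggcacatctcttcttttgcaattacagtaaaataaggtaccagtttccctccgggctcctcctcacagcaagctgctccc

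The Tgfb1 window held none of the 4 motifs and had a GC content of 75.2%, against a median of 52.4% over the 32851 windows of this length in the table. The Tgfb2 window held the Smad box at 221 and 204 bases before the start, the TGACG core on the opposite strand at 72 bases and a TATA box at 31 bases. The Inhba window was the most AT-rich of the members' windows, at 43.2% GC, and held a TATA box match at 91 bases before the start. The Smad box occurred in 42.2% of all windows, the TGACG core in 17.8%, TATAAA in 12.4% and GGCGCC in 9.59%, so matches of these short motifs are common. Among the members, GGCGCC was found only in a window of Tgfbr1, 233 bases before its start. A match is a description of the letters, not evidence of binding.

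Bmp4 itself was the check of the overexpression. Its probe read 11.96 and 12.07 in controls and 15.27 and 15.31 in Bmp4 OE samples. Of the markers of the tissue, 8 of 8 mandibular arch and 8 of 8 mesenchymal ones were measured. None lay below the lower quartile of all probes, 6.79, on all 4 arrays. The same held for epithelial, endothelial, neuronal and pericyte markers. Of the 16637 named genes only 2187 lay below it on all 4 arrays, so these levels do not tell the tissue. Arrays of the same group correlated across probes with r of 0.993 in both groups, and arrays of different groups with r between 0.974 and 0.981. With 2 arrays a group the smallest p of an exact two-sided permutation test is 0.333, so each probe was tested with limma, fitted across all probes and adjusted by Benjamini-Hochberg.

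By the brightest probe of each gene, 2 of the 10 genes rose, 2 fell and 6 did not pass (limma, threshold at an adjusted p of 0.05). Over all named genes 7.39% rose and 9.54% fell, 16.9% in either direction. Tgfb1 and Tgfb2 were the genes that rose and Tgfbr3 and Inhba those that fell. The median log2 fold change (Bmp4 OE minus control) of the 10 genes was -0.21, and that of all named genes was 0. The groups did not overlap for 8 of the 10 genes, 3 higher and 5 lower in Bmp4 OE, against 63.3% of all named genes in either direction (31.0% higher and 32.3% lower). The study's own rule asks for a 2-fold change and an unadjusted p below 0.05; 1 of the 10 genes met it in limma, against 3.29% of all named genes.

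**Figure D1:**
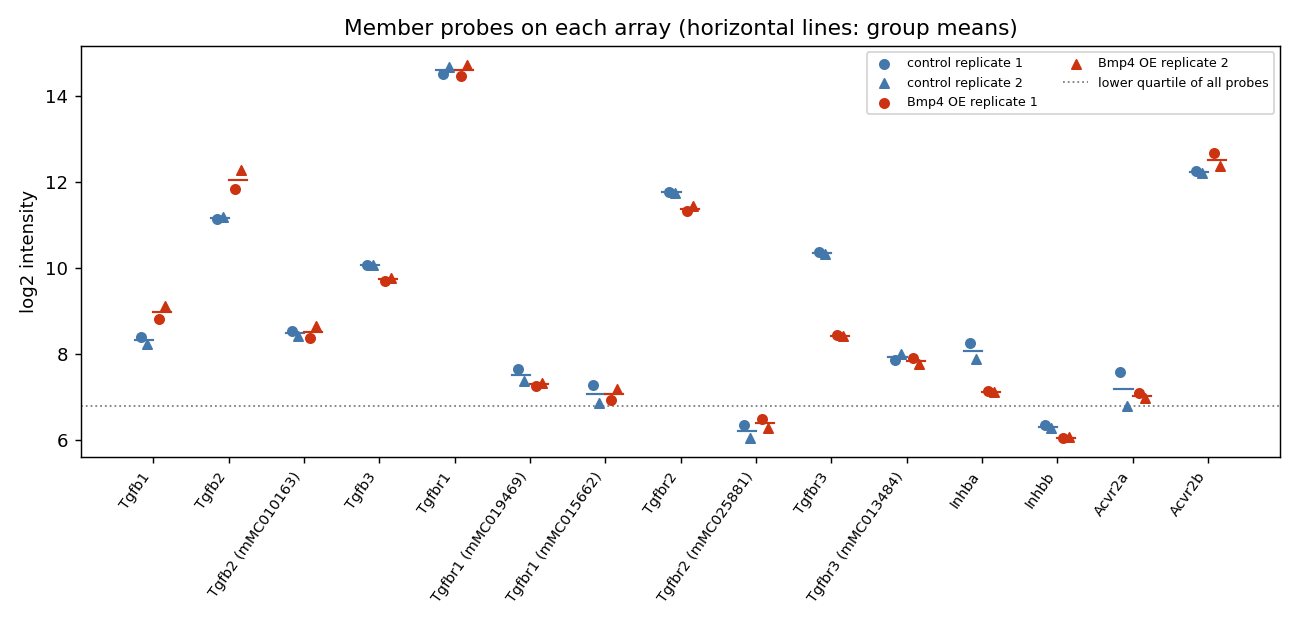
Log2 intensity (vertical axis) of the 15 member probes on each of the 4 arrays; blue points are controls, red points Bmp4 OE, circles replicate 1, triangles replicate 2, and short lines group means. The brightest probe of a gene carries the gene's name alone and other probes carry their identifier. Tgfbr3 fell from above 10 to near 8.4 at its brightest probe, while the groups overlap at its other probe.

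Among the TGF-β ligands, Tgfb2 changed most at the brightest probe, and Tgfb1 changed most with the mean of all probes of a gene. Tgfb2 encodes TGF-β2, the ligand whose loss in mice gives wide craniofacial defects. Its brightest probe (mMR030715) read 11.13 and 11.18 in controls and 11.82 and 12.27 in Bmp4 OE. Both Bmp4 OE arrays lay above both controls, and the Bmp4 OE arrays differed from each other by 0.45, against 0.05 between controls. The probe rose 1.85-fold, with a log2 fold change of 0.89 ± 0.17 (SE) and an adjusted p of 0.0284 in limma. The other Tgfb2 probe (mMC010163) did not show this rise. It read 8.54 and 8.41 in controls and 8.38 and 8.65 in Bmp4 OE, with overlapping groups. Its log2 fold change was 0.04, with a 95% interval of -0.29 to 0.37, whereas the interval of the brightest probe was 0.47 to 1.31. With the mean of both probes in place of the brightest, the log2 fold change of Tgfb2 was 0.47, below the 0.65 of Tgfb1, and short of the threshold (limma, adjusted p = 0.0648). The part of the transcript that each probe reads is not known, so the table does not tell which probe stands for the gene.

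Tgfb1, the broadly expressed ligand that is prominent in blood vessels and immune cells, was read by 1 probe. It gave 8.39 and 8.24 in controls and 8.81 and 9.12 in Bmp4 OE. The gap between the groups, 0.42, was larger than the 0.31 between the Bmp4 OE arrays and the 0.15 between the controls. Tgfb1 rose 1.57-fold (log2 fold change 0.65 ± 0.14, SE; limma, adjusted p = 0.0398). Of all named genes, 10.9% had a larger absolute log2 fold change than Tgfb1 and 4.95% a larger one than the brightest Tgfb2 probe.

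Tgfb3, the ligand required for fusion of the palatal shelves, did not follow the other TGF-β ligands upward. Its probe read 10.06 and 10.07 in controls and 9.70 and 9.76 in Bmp4 OE. The replicates were close and the groups did not overlap, but the difference did not pass over all probes, with a log2 fold change of -0.34 ± 0.10 (SE; limma, adjusted p = 0.0813). Its 95% interval, -0.59 to -0.08, lay below those of Tgfb1, 0.29 to 1.01, and of the brightest Tgfb2 probe, although the difference between the genes was not tested.

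Tgfbr3 had the largest change of the 10 genes. It encodes betaglycan, a membrane proteoglycan without kinase activity that presents TGF-β2 to the signalling receptors and also binds inhibin. Its brightest probe (mMC020668) read 10.37 and 10.32 in controls and 8.44 and 8.41 in Bmp4 OE. The groups were 1.88 apart, while replicates differed by 0.05 and 0.03. Tgfbr3 fell 3.78-fold at this probe (log2 fold change -1.92 ± 0.10, SE; limma, adjusted p = 0.00201), a change exceeded in size by 0.421% of named genes. It was the gene of the 10 that also passed the study's threshold.

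The other Tgfbr3 probe (mMC013484) did not show the fall. It read 7.87 and 8.01 in controls and 7.91 and 7.76 in Bmp4 OE, so the groups overlapped. Its log2 fold change was -0.11, with a 95% interval of -0.40 to 0.19, against -2.17 to -1.67 at the brightest probe. The mean of both probes gave a log2 fold change of -1.01 and passed (limma, adjusted p = 0.00326). The 3 named genes whose centred values over the 4 arrays lay nearest to the brightest Tgfbr3 probe were Thy1, Sfrp2 and Prdx2. Their Euclidean distances were 0.0865, 0.104 and 0.109 log2 units over 4 arrays. Thy1 encodes a surface glycoprotein of mesenchymal and other cells, Sfrp2 a secreted WNT antagonist and Prdx2 a peroxide-reducing enzyme; their log2 fold changes were -1.91, -1.98 and -1.91.

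The signalling receptors of TGF-β changed less. Tgfbr2, the type II receptor that binds the ligand first, read 11.76 and 11.74 in controls and 11.31 and 11.43 in Bmp4 OE at its brightest probe (mMR027560). Both Bmp4 OE arrays lay below both controls by at least 0.31. The log2 fold change was -0.38 ± 0.11 (SE) and did not pass (limma, adjusted p = 0.0680). It did pass in limma with an intensity trend (adjusted p = 0.0444), with 50 added to the linear values (0.0445) and without probes below the median (0.0452), and its adjusted p over all alternatives ranged from 0.0444 to 0.257. The other Tgfbr2 probe (mMC025881) went the other way, with a log2 fold change of 0.185. It lay below the lower quartile of all probes on all 4 arrays, where the array gives little range.

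Tgfbr1, the type I receptor kinase of the pathway, was read by 3 probes, none of which passed. Its brightest probe (mMR031099) read 14.50 and 14.67 in controls and 14.46 and 14.72 in Bmp4 OE. The spread between replicates exceeded the difference between groups, and the log2 fold change was 0.005 with a 95% interval of -0.33 to 0.34. The other Tgfbr1 probes gave log2 fold changes of -0.23 and -0.01. Their intervals, -0.55 to 0.10 and -0.46 to 0.44, show how large a change these arrays could have missed.

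**Figure D2:**
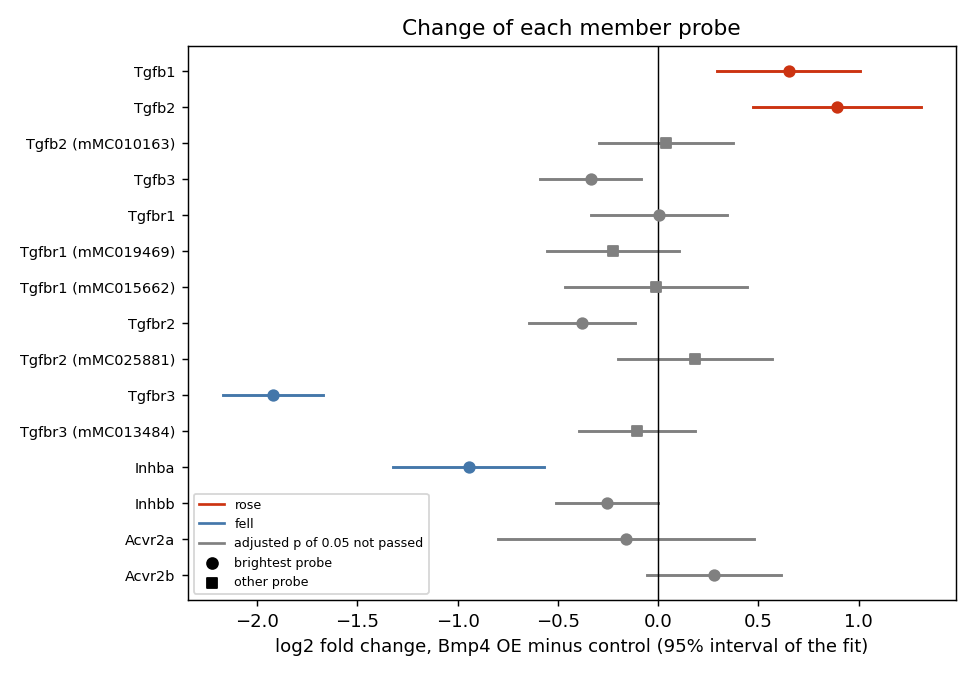
Log2 fold change of each member probe (horizontal axis, Bmp4 OE minus control) with the 95% interval of the limma fit; circles are the brightest probe of a gene and squares other probes, red rose, blue fell and grey did not pass. The brightest probes of Tgfb2 and Tgfbr3 stand apart from the other probe of the same gene, and all 3 Tgfbr1 probes have intervals that include 0.

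Of the activin and inhibin subunits, Inhba fell. Inhba encodes the βA subunit, which forms activin A as a homodimer and inhibin A with the α subunit. Its probe read 8.26 and 7.88 in controls and 7.14 and 7.11 in Bmp4 OE. The controls were 0.38 apart and the Bmp4 OE arrays 0.03, and the gap between the groups was 0.74. Inhba fell 1.93-fold (log2 fold change -0.95 ± 0.15, SE; limma, adjusted p = 0.0199), a change exceeded in size by 4% of named genes. The Bmp4 OE values lay not far above the lower quartile of 6.79, where values are compressed.

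Inhbb, the βB subunit gene of activin B, was near the floor of the array. It read 6.35 and 6.27 in controls and 6.04 and 6.07 in Bmp4 OE, below the lower quartile on all 4 arrays. The groups did not overlap, but its log2 fold change of -0.26 ± 0.10 (SE) did not pass (limma, adjusted p = 0.152).

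The activin type II receptors, which also bind BMPs and growth differentiation factors, did not pass. Acvr2b read 12.25 and 12.21 in controls and 12.66 and 12.36 in Bmp4 OE. Both Bmp4 OE arrays were above both controls, by a gap of 0.11 that was smaller than the 0.30 between the Bmp4 OE arrays (log2 fold change 0.28 ± 0.13, SE; limma, adjusted p = 0.213). Acvr2a read 7.58 and 6.80 in controls and 7.09 and 6.97 in Bmp4 OE. The controls, 0.78 apart, enclosed both Bmp4 OE values, and the 95% interval of its log2 fold change ran from -0.80 to 0.48. Without control replicate 1 the Acvr2a value turned to 0.23.

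**Figure D3:**
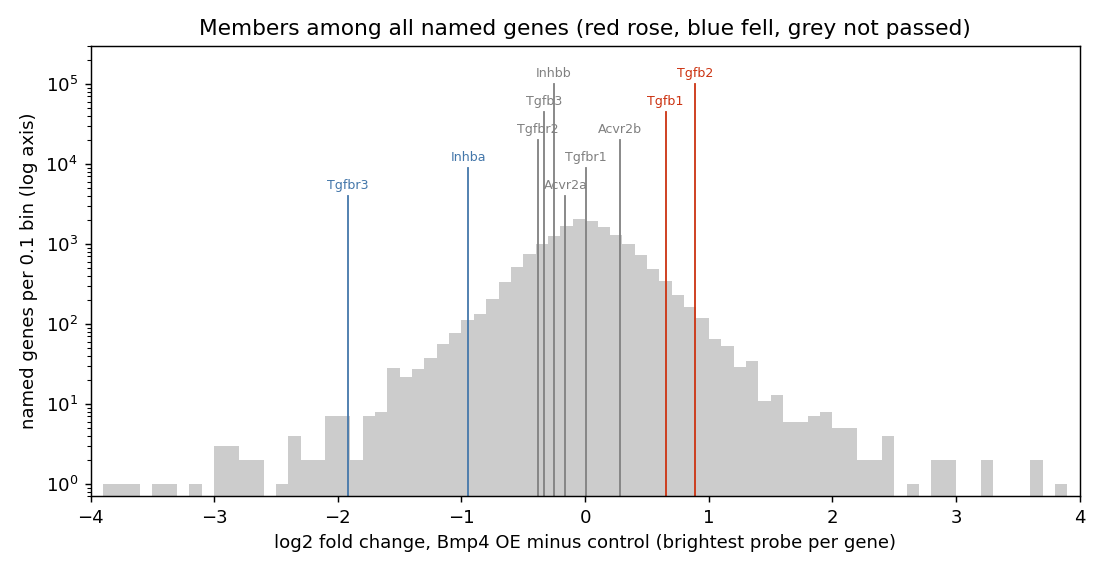
Number of named genes (vertical log axis) by log2 fold change at the brightest probe (horizontal axis, bins of 0.1), with the 10 genes as vertical lines whose heights serve only to separate the names. Tgfbr3 lies far in the lower tail, Inhba, Tgfb1 and Tgfb2 lie in the outer parts, and the other 6 genes lie between -0.38 and 0.28.

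Other genes of the pathway were counted from 5 lists, 77 of whose 82 genes were measured. By the brightest probe, 12 rose, 6 fell and 59 did not pass in limma, a share of 23.4% in either direction against 16.9% of all named genes; the median log2 fold change was 0.09. Among 9 other ligand genes 0 passed, although 2 were higher at an unadjusted p of 0.05 in limma. These were Lefty2, an inhibitor of Nodal, and Gdf3, with log2 fold changes of 0.45 and 0.54. For this and the lists below, the share of all named genes at that unadjusted p was not counted. It is at least the 16.9% that passed after adjustment, and whether these counts exceed it cannot be told. Among 6 other receptor and co-receptor genes 0 passed, and 2 were higher at an unadjusted p of 0.05. These were Acvrl1, an endothelial type I receptor also called ALK1 (log2 fold change 0.56; limma, adjusted p = 0.0539), and Acvr1b, the type I receptor of activin also called ALK4 (0.38; adjusted p = 0.0771).

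Among extracellular regulators of ligand storage and access, by the brightest probe, 3 of 23 rose, 0 fell and 20 did not pass in limma, and 6 were higher and 0 lower at an unadjusted p of 0.05. Other probes of 2 genes passed in the lower direction: Ltbp1, which anchors latent TGF-β, with a log2 fold change of -0.72 (mMR026543), and Thbs1, the activator thrombospondin 1, with -0.91 (mMR026256; limma, adjusted p = 0.0196 and 0.0143). Dcn and Bgn, which encode the ligand-binding proteoglycans decorin and biglycan, each rose 1.81-fold (limma, adjusted p = 0.0115 and 0.0141). The other 2 Dcn probes gave 0.64 and -0.30 on the log2 scale, and the first of these passed. Ltbp3, another latent TGF-β binding protein gene, rose 1.48-fold (adjusted p = 0.0297). Neither Furin, a protease that cleaves the precursors, nor Fmod, another small proteoglycan, passed (log2 fold changes 0.46 and 0.36). Fst, the activin antagonist follistatin, read between 6.01 and 6.15 on all 4 arrays, below the lower quartile. A fall in Fst was not measurable there, and no rise was seen (log2 fold change -0.04).

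Among Smads and intracellular regulators, 1 of 17 rose, 1 fell and 15 did not pass. Skil, which encodes the co-repressor SnoN and is itself induced by TGF-β, rose 2.31-fold at its brightest probe, from 11.37 and 11.49 to 12.61 and 12.66 (limma, adjusted p = 0.00576), while the log2 fold change at its other probe was 0.03. Tgif2, a co-repressor of Smads, fell 1.59-fold (adjusted p = 0.0263). Ski, another co-repressor, read 8.86 and 8.92 in controls and 8.15 and 8.54 in Bmp4 OE. Smad3 read 12.50 and 12.70 against 13.19 and 12.93. Neither passed: the log2 fold changes were -0.55 for Ski and 0.46 for Smad3 (limma, adjusted p = 0.0706 and 0.0824), and that of the decoy receptor gene Bambi was 0.48 (0.0625). The log2 fold change of Smad2 was -0.22, and the inhibitory Smad7 read between 6.26 and 6.53 on the 4 arrays, under the lower quartile.

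Genes known to respond to TGF-β moved in both directions. Of 22 measured, 8 rose, 5 fell and 9 did not pass in limma. In either direction 59.1% of this list passed, against 16.9% of all named genes, while 5 of the 55 genes of the other 4 lists passed, or 9.09%. The lists were chosen with earlier results of these data known, so these shares are not a test of the pathway. Of the 22 genes, 0 lay below the lower quartile on all 4 arrays, against 2187 of the 16637 named genes. The largest rise was in Tgfbi, a matrix protein named for its induction by TGF-β, with a log2 fold change of 1.57, followed by Tgfb1i1, a focal adhesion adaptor also called Hic-5, which rose 2.14-fold. Cdkn1a, a cell cycle inhibitor, and Acta2, smooth muscle actin, also rose, with log2 fold changes of 0.97 and 0.92. The other Acta2 probes disagreed, with log2 fold changes of 0.69, -0.16 and -0.22. The largest fall was in Tnc, the matrix protein tenascin C, at -1.51. Vim, vimentin, read the maximum of 16 on all 4 arrays. A rise in it was not measurable there, and a fall that stayed above this ceiling would not be seen either. Many of these genes also respond to other signals, and the list has no single direction here.

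**Figure D4:**
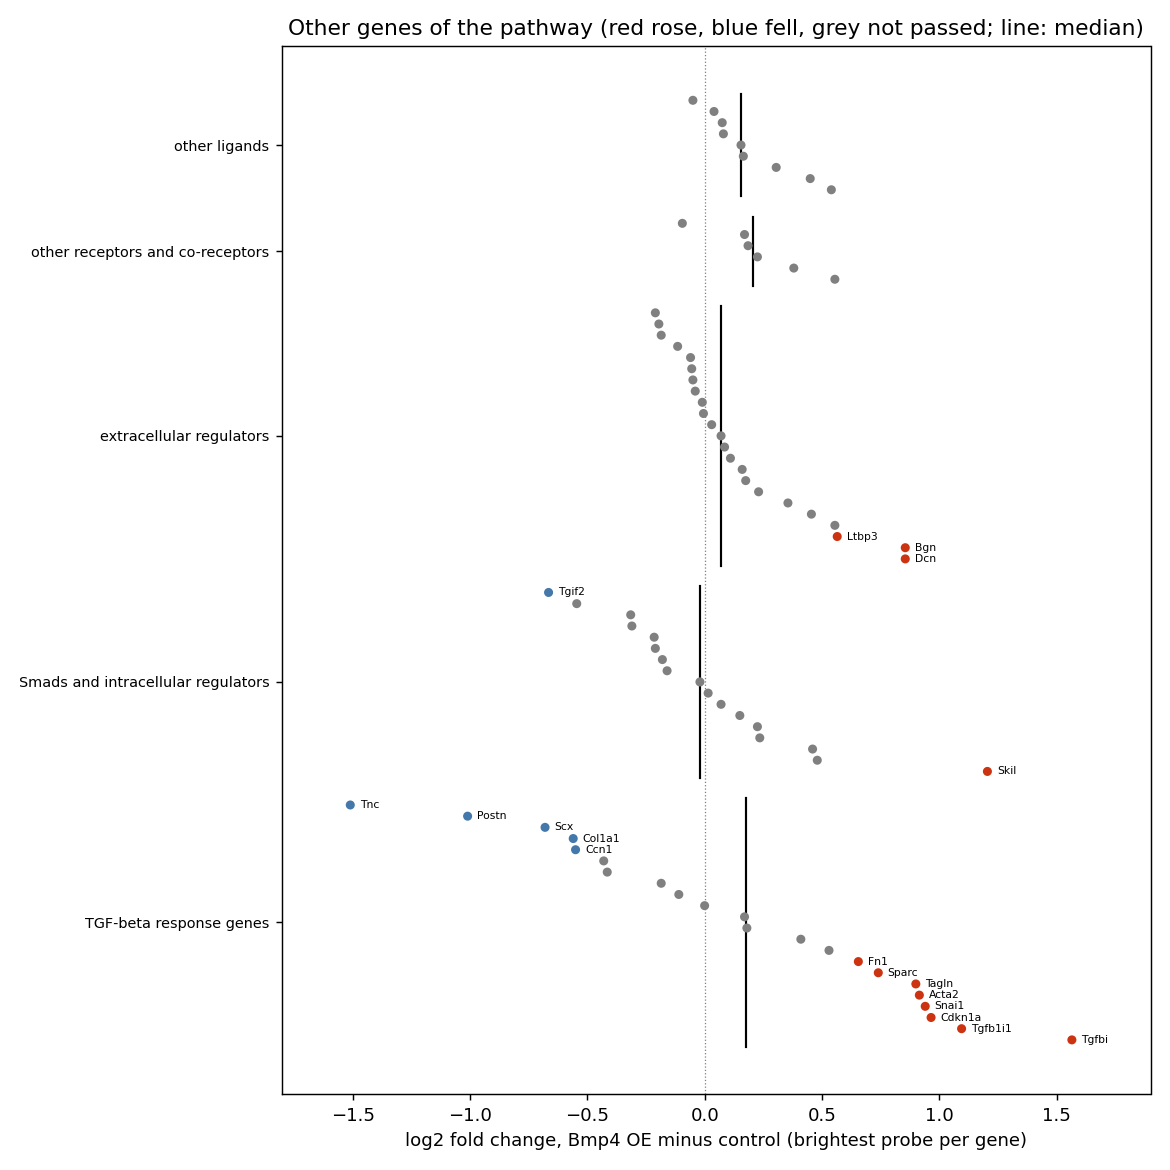
Log2 fold change at the brightest probe (horizontal axis, Bmp4 OE minus control) of the 77 other pathway genes, grouped by list; each point is a gene, red rose, blue fell, grey did not pass, and the black line is the median of the list. The response genes spread from Tnc at -1.51 to Tgfbi at 1.57, whereas no other ligand or receptor gene passed.

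Markers of other cell types moved beside these changes, and their part in the results was not tested. Over all named genes 7.39% rose and 9.54% fell, 16.9% in either direction, so 1 call in a list of 6 is near that share. In whole mandibles, fewer cells of a type and less RNA per cell cannot be told apart. Summed levels add linear intensities, so the brightest marker of a list weighs most and a sum can differ from most of its markers. Among 6 macrophage markers 1 rose (Mrc1), with Ptprc below the lower quartile on all 4 arrays. The log2 of their summed intensity went from 10.82 to 10.84 in controls to 11.18 to 11.25 in Bmp4 OE. Of 6 endothelial markers 1 rose (Cldn5), with summed levels of 12.67 to 12.69 against 12.94 to 13.01. Of 6 pericyte markers 2 rose (Rgs5 and Kcnj8) and 1 fell (Pdgfrb), with summed levels of 12.51 to 12.53 against 12.51 to 12.58. Of 6 neuronal markers 1 rose, Isl1, which is not specific to neurons, and the summed levels were 14.65 to 15.12 against 15.69 to 15.74. That sum was set mostly by Elavl3, the brightest of them, which did not pass.

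Among 8 mesenchymal markers 3 fell (Twist2, Twist1 and Col1a1) and 1 rose (Prrx2). Their summed levels were 17.31 to 17.33 in controls and 17.14 to 17.19 in Bmp4 OE. Neither Prrx1 nor Pdgfra, widely expressed in jaw mesenchyme, passed (log2 fold changes -0.17 and 0.03). Of 8 epithelial markers 4 rose (Krt8, Krt18, Cdh1 and Cldn6) and 2 fell (Krt14 and Krt5), with summed levels of 15.23 to 15.31 against 15.00 to 15.05. Of 8 mandibular arch markers 1 rose (Msx1) and 4 fell (Barx1, Lhx8, Pitx1 and Gsc), with summed levels of 15.14 to 15.15 against 15.27 to 15.30. Of 6 muscle markers 1 rose (Des), with Tcf21 below the lower quartile on all 4 arrays and summed levels of 11.17 to 11.19 against 11.40 to 11.63. Of 4 erythroid markers 1 fell (Alas2), with summed levels of 17.59 to 17.63 against 17.55 to 17.58.

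All 4 calls among the ligand and receptor genes were lost when any of the 4 arrays was left out, as were all calls over the 29922 probes, in fits with 1 residual degree of freedom. The direction of these 4 genes could not turn, because their groups did not overlap at the brightest probe. Without 1 array, the log2 fold change ran from 0.50 to 0.81 for Tgfb1, 0.67 to 1.12 for Tgfb2, -1.95 to -1.90 for Tgfbr3 and -1.14 to -0.76 for Inhba.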

How the data were processed

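Per the labels' protocols, total RNA was amplified with aminoallyl nucleotides and labelled with Cy5, and each array held 1 sample. The deposited values are log2 intensity; the log base was read from their maximum of 16, the top of a 16-bit scale. The sorted columns are identical (largest difference 0), so the authors' values were quantile-normalised. This hides shifts of most genes and compresses changes near the floor and ceiling. Not given in the sources used here: scanner, background correction, software. Probe symbols came from the platform annotation (21020 probes with 1 symbol, 8902 with none), updated through GRCm38.p6 RefSeq synonyms.

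Samples were grouped by title. Each probe was fitted with limma 3.58.1 in R 4.3.3 (lmFit, eBayes without trend, two-sided, no filter), with Benjamini-Hochberg adjustment over 29922 probes. The prior had 3.59 degrees of freedom and the residual 2. The number of arrays limits the precision. A gene was called by its brightest probe, the one with the highest mean over all 4 arrays. The members and lists were chosen with earlier results of these data known. Named genes were all members, Bmp4, up to 5 genes of each list with the smallest p, and Fst, Smad2, Smad3, Smad7 and Acvr1b; 1 further gene is not reported here; Vim, Ltbp1, Thbs1 and single cell type markers were named after their values were seen. Alternatives changed scaling, offset, filter, variance trend, block, probe choice and arrays.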

Additional observations from a re-analysis of the deposited data

How the results depend on the processing

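Median centring and repeated quantile normalisation leave values that already share 1 distribution as they are, so they test nothing. Removing probes below the lower quartile changed no call among the member genes. Adding 50 to the linear values, an intensity trend and removing probes below the median each moved 1 member probe past the threshold, that of Tgfbr2; the last also removed the Inhba probe, so that 7 member genes were tested and 1 of the 2 falls dropped out. With the mean of all probes of a gene, 1 member gene rose, Tgfb1. Over these alternatives with all 4 arrays and no block, 12 to 16 other pathway genes rose and 6 to 9 fell. The replicate numbers are shared between groups, and deviations of same-numbered arrays correlated with r = -0.0711. With 2 arrays a group this cannot settle whether same-numbered arrays were paired, and the labels do not say. With the replicate block 0 probes, 0 member genes and 0 other pathway genes rose or fell in limma (lowest adjusted p = 0.0745). In that fit 8724 probes and 6 member genes had an unadjusted p under 0.05. Leaving out 1 array gave between 0 and 0 calls among probes, member genes and other pathway genes. The lowest adjusted p was then 0.191 without control replicate 1, 0.138 without control replicate 2, 0.170 without Bmp4 OE replicate 1 and 0.155 without Bmp4 OE replicate 2, and the numbers of probes with an unadjusted p under 0.05 were 6020, 7947, 6650 and 7363. Signs turned only for probes whose groups overlapped, and where groups do not overlap they cannot turn. Their log2 fold changes without 1 array ranged from -0.13 to 0.14 for Tgfbr1 (mMR031099), -0.23 to 0.21 for Tgfbr1 (mMC015662), -0.55 to 0.23 for Acvr2a and -0.10 to 0.18 for Tgfb2 (mMC010163). Inhbb and a Tgfbr2 probe near the array's floor, and Vim at its ceiling, limit what can be measured.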
